A study of Mus musculus with 6 samples.

Results

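The cytosolic ribosomal proteins were examined in sorted cells of mouse mammary tumours, as the transcripts of 45 genes out of 18193 genes that had an array probe set with a single gene symbol. Members were chosen by name. Each symbol was Rpl or Rps followed by a number and an optional a, b, l or x, or was Rplp0, Rplp1, Rplp2 or Rpsa, and S6 kinase genes and the pseudogene Rps4l were left out. The 45 genes comprised 21 of the small ribosomal subunit and 24 of the large subunit. After the dimmest 25% of probe sets were left out, 44 of them (20 and 24) stood among the 15027 genes tested, and each was represented by its probe set with the highest mean over all arrays. The gene that did not pass was Rps16, whose only probe set with a single symbol averaged 2.33 on the log2 scale. The members are a part of the family, since 81 RefSeq genes that are not pseudogenes fit the naming pattern. Rplp1, Rps27a, Rpl5 and Rpl10, among others, had no probe set of their own and are not members. Probe sets with several gene symbols carry 28 ribosomal protein genes that are not members.

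Tumours came from 3 MMTV-Wnt-1 mice, in which the promoter of the mouse mammary tumour virus drives Wnt1 in the mammary gland. Strain, age and any treatment were not given in the sources used here, and all 6 samples share the transgene. From each tumour, the population labelled tumorigenic was sorted by fluorescence as CD24+ and Thy+ cells without CD45. The population labelled nontumorigenic carries the negation of that gate, and its label does not settle whether the negation also covers CD45. Each population was hybridised to 1 Affymetrix array per mouse, after amplification of its total RNA, which gave 3 arrays against 3 from the same 3 animals. Where values are listed per array, they run from mouse 1 to mouse 3. All levels are log2 values normalised by the authors, and all differences are labelled tumorigenic minus labelled nontumorigenic on that scale.

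A cytosolic ribosome is built from ribosomal RNA and a nearly fixed set of proteins, most of them present once per particle. The small subunit reads the messenger RNA, the large subunit joins amino acids, and a flexible stalk of acidic proteins on the large subunit recruits elongation factors. In vertebrates the messenger RNAs of these proteins start with a C followed by a run of pyrimidines, the terminal oligopyrimidine (TOP) tract, through which mTOR signalling governs their translation. Several of the proteins also act outside the ribosome, for example Rpl5 and Rpl11, which bind the p53 inhibitor Mdm2 when ribosome assembly is disturbed.

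The start of the transcript is the sequence feature that names this group as a regulated set, so windows of 30 bases around annotated starts are shown, from RefSeq on the assembly GRCm38.p6. A tract was counted where the annotated first base was C and the next 4 bases were each C or T. It was present in 8 of the 40 members with a start in the table (20%), against 3.01% of 27025 genes. The windows of these 8 genes are printed 5′ to 3′, with 15 bases upstream in lower case. The tract is in capitals from the annotated first base, and the rest of the window is in lower case. The positions are chr9:120571502-120571531 (plus strand) for Rpl14, chr2:39005117-39005146 (minus) for Rpl35, chr11:114668565-114668594 (plus) for Rpl38 and chr7:141447636-141447665 (plus) for Rplp2. They are chr17:27635230-27635259 (minus) for Rps10, chr17:33955651-33955680 (minus) for Rps18, chr3:90213634-90213663 (minus) for Rps27 and chr4:86857353-86857382 (minus) for Rps6.
Rpl14: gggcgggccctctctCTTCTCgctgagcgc
Rpl35: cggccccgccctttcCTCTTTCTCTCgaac
Rpl38: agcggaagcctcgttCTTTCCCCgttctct
Rplp2: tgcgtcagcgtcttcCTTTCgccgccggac
Rps10: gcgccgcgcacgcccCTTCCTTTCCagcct
Rps18: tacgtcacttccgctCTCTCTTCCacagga
Rps27: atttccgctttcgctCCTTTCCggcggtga
Rps6: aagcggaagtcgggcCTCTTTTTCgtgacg

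The other members had no such tract exactly at the annotated base. A looser search, for a C followed by at least 7 pyrimidines on the transcribed strand within 50 bases on either side of the start, found a run in 35 of the 40 genes (87.5%), against 32% of all genes. Windows of Rpl39l (chr16:10170213-10170242, plus strand) and Rps25 (chr9:44407699-44407728, plus strand) are shown because these genes had the highest differences between the populations. No capitals are used, since no tract was found at the start.
Rpl39l: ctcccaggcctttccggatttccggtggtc
Rps25: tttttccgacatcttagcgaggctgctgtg
A match describes the annotated letters only. The 8 genes with a tract at the start had a median difference of 0.00282 (range -0.401 to 0.163). The 31 tested genes without one had a median of -0.0109 (range -0.527 to 0.827). Because the looser search found a run in most of the members, this split does not separate transcripts with and without a TOP tract. No conclusion on the tract is drawn from it.

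No difference in the ribosomal protein transcripts between the 2 populations was detected on these arrays. Their median difference was -0.00138, against 0.00506 over all genes tested. Of the 44 genes, 22 were higher in the arrays labelled tumorigenic and 22 were lower, against 50.7% of all genes higher. None passed limma's test at an adjusted p of 0.05. In the whole comparison 0 of 15027 genes passed (0%), so the absence of calls among the members follows the background. At an unadjusted p under 0.05, 0 of the 44 members were found, against 8.5% of all genes tested (5.23% higher and 3.27% lower). The groups did not overlap in 1 member, Rpl39, which was lower, against 12.5% of all genes (6.9% higher and 5.59% lower). Small subunit genes had a median of 0.0197, with 12 of 20 higher, and large subunit genes a median of -0.0139, with 10 of 24 higher.

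The intervals say how large a difference these arrays still allow under limma's fit without the mouse, so they include the spread between mice. Limma also draws the variance of each gene toward a value shared by all genes. Rps15, with SDs of 0.055 and 0.016 in the 2 populations, thus had an SE of 0.14. The 95% interval of the difference lay wholly within 0.5 log2 units of 0 for 22 of the 44 members (50%), against 12% of all genes tested. It lay within 1 log2 unit for 39 members (88.6%), against 56.2% of all genes. These intervals are those of the brightest probe set of each gene. Member probe sets with a mean of at least 12 had a median range of 0.307 over the 6 arrays. That range was 0.667 at means of 10 to 12 and 1.36 at 6 to 10. The part of the signal level in the narrow intervals was not tested, and dimmer probe sets of some genes differed more. The plot of differences with intervals shows that the wide ones belong to Rpl39l, Rpl14, Rpl12, Rps25 and Rps27l.

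**Figure D1:**
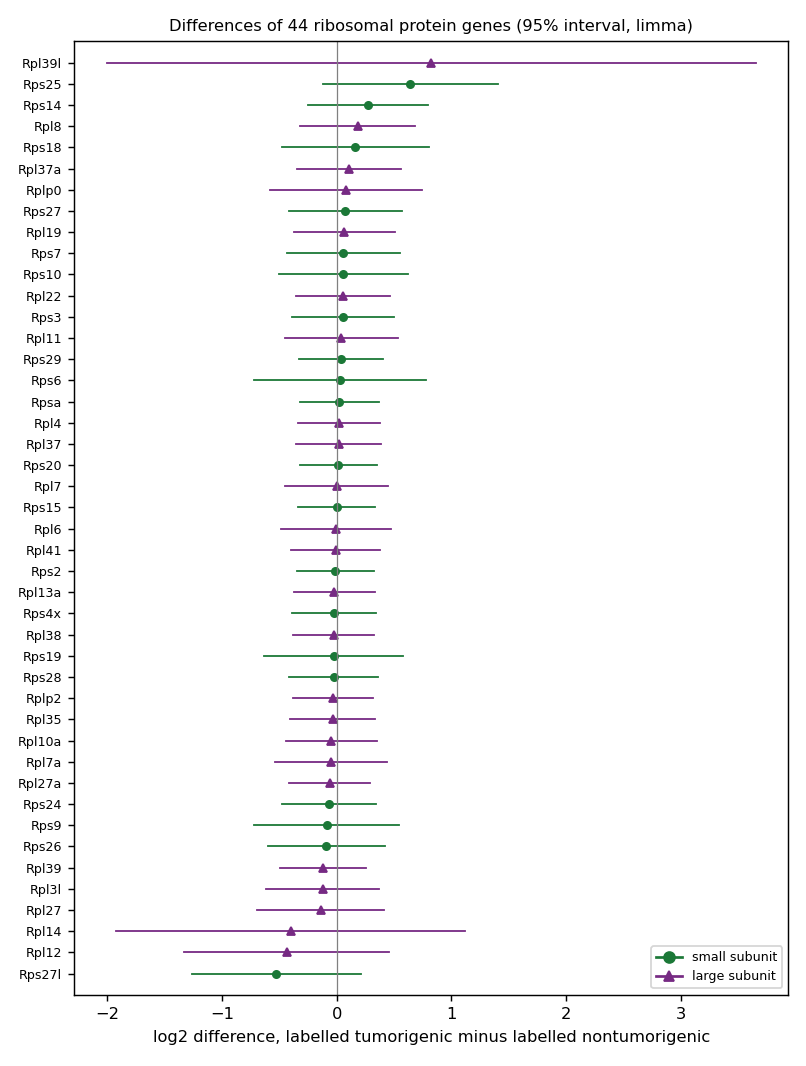
Log2 difference (labelled tumorigenic minus labelled nontumorigenic) of the 44 ribosomal protein genes tested, each with its 95% interval from limma (3 arrays against 3), with circles for the small and triangles for the large subunit. Every interval covers 0, and the differences run from -0.53 (Rps27l) to 0.83 (Rpl39l).

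The members did differ among the arrays, and the array that stood apart was the labelled tumorigenic array of mouse 1. It held the lowest of the 6 values in 38 of the 44 genes (86.4%), against 24.5% of all genes tested, and the highest value in 0. The labelled tumorigenic array of mouse 3 held the highest value in 27 members (61.4%), against 16.4% of all genes. Measured from each gene's own mean, the median member stood at -0.234, 0.0760 and 0.157 on the labelled tumorigenic arrays, and at -0.0260, 0.0765 and -0.0401 on the labelled nontumorigenic arrays. The labelled tumorigenic arrays therefore lay on both sides of the labelled nontumorigenic ones. The SD among the labelled tumorigenic arrays was the larger in 40 of the 44 genes (90.9%), against 54.6% of all genes. The median SD of a member was 0.246 among labelled tumorigenic arrays and 0.101 among labelled nontumorigenic arrays, while over all genes these medians were 0.298 and 0.270.

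**Figure D2:**
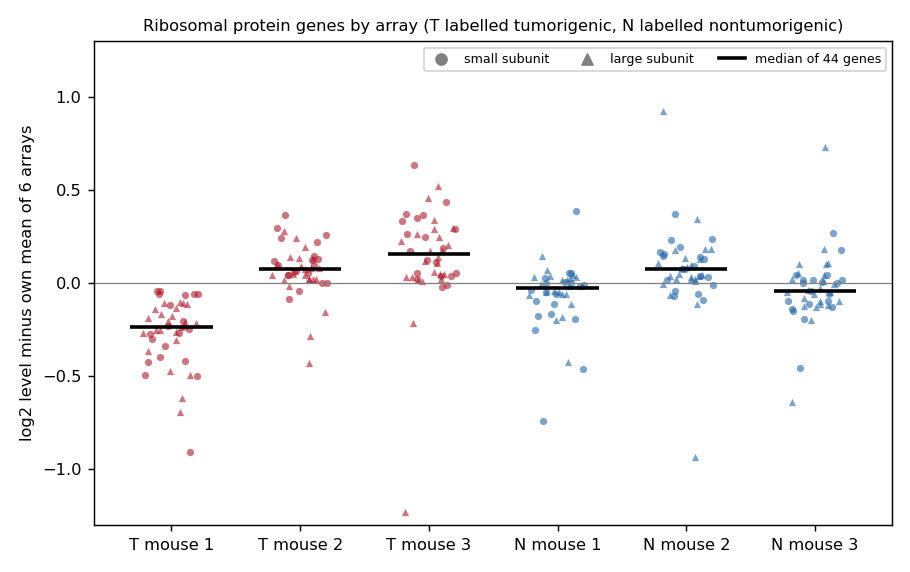
Log2 level of each ribosomal protein gene minus its own mean over 6 arrays, by array (T, labelled tumorigenic; N, labelled nontumorigenic), with circles for small subunit genes, triangles for large subunit genes and a black bar at the median of 44 genes. The medians are -0.234, 0.0760 and 0.157 on the T arrays and -0.0260, 0.0765 and -0.0401 on the N arrays; 3 points lie outside the axis (Rpl39l at 2.84 on T mouse 2 and at -1.53 on N mouse 1, Rpl14 at 1.35 on N mouse 1).

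Within a mouse, the set had another direction in mouse 1 than in mouse 3. In mouse 1, 2 of the 44 genes were higher in the labelled tumorigenic sample, with a median difference of -0.164. In mouse 2, 22 were higher and the median was 0.00301. In mouse 3, 36 were higher and the median was 0.111. Over all genes tested the shares higher were 45.4%, 53.3% and 49.2%, and the medians were -0.0334, 0.0424 and 0. With 1 array per population and mouse, the difference between mice has no replicate and was not tested. When the labelled tumorigenic array of mouse 1 was left out, the median of the members was 0.0750 and 38 of 44 were higher. Leaving out that of mouse 3 gave -0.0564, with 10 of 44 higher. No member passed the adjusted threshold in either case.

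Other properties of the arrays also differed among the mice, some in the order of the ribosomal proteins and some not. Ptprc, which encodes the CD45 that the gate selects against, read 10.21, 7.76 and 3.82 on the labelled tumorigenic arrays, and 2.34, 3.59 and 2.51 on the labelled nontumorigenic arrays. It lay under the dim limit of 2.98 on the labelled nontumorigenic arrays of mice 1 and 3. Because the high values go against the gate, the populations are called by their labels throughout. All 14 leukocyte markers on the list were measured and were higher in the labelled tumorigenic sample of every mouse, by a median of 6.62, 4.85 and 1.11 in mice 1 to 3. Their summed log2 levels ranged from 82.8 to 153 on labelled tumorigenic arrays and from 58.2 to 60.7 on labelled nontumorigenic arrays. Of the sort's other markers, Cd24a read 11.85, 12.34 and 12.84 on labelled tumorigenic arrays, against 12.86, 12.84 and 12.99, and Thy1 read 10.84, 10.51 and 9.33, against 10.25, 9.67 and 10.04. The 10 basal markers had medians of -0.0362, 0.128 and 1.28 in mice 1 to 3, with sums of 94.5 to 106 on labelled tumorigenic arrays and 92.1 to 97.1 on labelled nontumorigenic arrays. The 10 luminal markers had medians of -2.92, -0.817 and -1.44, with sums of 61.1 to 79.9 on labelled tumorigenic arrays and 89.8 to 92.6 on labelled nontumorigenic arrays, so mouse 2 and not mouse 3 was nearest to 0. The 8 milk genes had medians of -3.03, -2.23 and -1.05, with sums of 61.1 to 70.0 and 79.9 to 91.1 on the labelled tumorigenic and labelled nontumorigenic arrays. The 8 fibroblast markers ran the opposite way, with medians of 0.935, 0.456 and -0.799 and sums of 73.1 to 86.4 on labelled tumorigenic arrays and 77.6 to 82.6 on labelled nontumorigenic arrays. All 10 endothelial markers had a positive difference, with medians of 0.881, 1.65 and 1.48 and sums of 72.7 to 79.3 on labelled tumorigenic arrays and 59.0 to 64.8 on labelled nontumorigenic arrays. The control probe set for 18S rRNA (3′ end) read 7.76, 6.32 and 7.38 on labelled tumorigenic arrays, against 8.97, 8.52 and 8.66, with mouse 2 the lowest. The 3′ probe set of Gapdh exceeded its 5′ probe set by 3.81, 6.60 and 2.62 on labelled tumorigenic arrays, against 3.78, 2.41 and 3.10, so the widest gap was on mouse 2 and not on mouse 1. The part of these properties in the ribosomal protein values was not tested, and in bulk sorted cells fewer cells of a type and less RNA per cell cannot be told apart.

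Among the stalk proteins, Rplp0 anchors the stalk to the large subunit. It read 10.77, 11.38 and 11.70 on the labelled tumorigenic arrays, and 11.04, 11.38 and 11.19 on the labelled nontumorigenic arrays. The labelled tumorigenic arrays held both the lowest and the highest value, and the difference was 0.08 (SE 0.27, adjusted p = 0.951, limma). Rplp2, an acidic protein of the stalk's tip whose window carries a tract at the start, read 13.05, 13.20 and 13.17 against 13.19, 13.21 and 13.12. Apart from the lowest value in mouse 1, the arrays of both populations overlapped, at a difference of -0.03 (SE 0.14, adjusted p = 0.963).

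Of the small subunit, Rps25, a protein of the subunit's head needed for translation from some viral internal entry sites, had the smallest p of all members. It was measured by 1 probe set only, a dimmer one with a mean of 7.09 over the 6 arrays. Its levels were 7.05, 7.46 and 7.73 on the labelled tumorigenic arrays, and 6.35, 7.32 and 6.63 on the labelled nontumorigenic arrays. It was higher in the labelled tumorigenic sample of all 3 mice. The groups overlapped because the labelled nontumorigenic array of mouse 2 lay above the labelled tumorigenic array of mouse 1. The means were 7.41 ± 0.34 and 6.77 ± 0.50 (SD, n = 3 each), a difference of 0.64 (SE 0.31, adjusted p = 0.635, limma), which misses the threshold.

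Rps14 lies on the platform of the small subunit, and its loss from 1 chromosome copy underlies the anaemia of the human 5q- syndrome. Its levels were 11.20, 11.67 and 11.88 on labelled tumorigenic arrays, and 11.25, 11.35 and 11.32 on labelled nontumorigenic arrays. Mice 2 and 3 were above every labelled nontumorigenic array and mouse 1 was below all of them, with a difference of 0.27 (SE 0.21, adjusted p = 0.762). When that array of mouse 1 was left out, its difference was 0.47, with an unadjusted p of 0.0404 and an adjusted p of 0.804, and it was 0.12 when that of mouse 3 was left out.

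Rps19, the gene most often mutated in human Diamond-Blackfan anaemia, showed the order of the arrays clearly. It read 11.33, 11.94 and 12.16 on labelled tumorigenic arrays, and 11.79, 11.99 and 11.73 on labelled nontumorigenic arrays. Its differences within mice 1 to 3 were -0.46, -0.05 and 0.43, which cancelled to a mean of -0.03 (SE 0.25, adjusted p = 0.984). Rps18, a protein of the head and a gene with a tract at its start, had the like order, with -0.17, 0.15 and 0.51 within mice 1 to 3.

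Rps6, the substrate of the S6 kinases downstream of mTOR, read 7.73, 8.49 and 8.53 on labelled tumorigenic arrays, and 7.77, 8.47 and 8.41 on labelled nontumorigenic arrays. Here mouse 1 was low in both populations, so that the differences within mice were -0.04, 0.02 and 0.11 and the mean difference was 0.03 (SE 0.31, adjusted p = 0.984). The other probe set of this gene averaged 3.23, near the dim limit of 2.98.

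Rpsa, an assembly component of the small subunit also known as the laminin receptor precursor, was among the steadiest members. It read 12.43, 12.54 and 12.55 on labelled tumorigenic arrays, and 12.52, 12.43 and 12.49 on labelled nontumorigenic arrays, a difference of 0.02 (95% interval -0.32 to 0.37). Its other, dim probe set, with a mean of 4.05, varied by 1.29 over the 6 arrays and differed by -0.31. Rps3, which lines the messenger RNA entry channel, differed by 0.06 (95% interval -0.39 to 0.50), and Rps29, a zinc-binding protein, by 0.04 (-0.32 to 0.40). Rps27, another zinc-binding protein, was measured by a dim probe set only, with a mean of 5.36 and a difference of 0.08 (-0.42 to 0.57). The remaining small subunit genes, Rps2, Rps4x, Rps7, Rps9, Rps10, Rps15, Rps20, Rps24, Rps26 and Rps28, differed by -0.09 (Rps26) to 0.06 (Rps7), with unadjusted limma p of 0.682 or more.

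In the large subunit, Rpl8, which lies beside the peptidyl transferase centre, had the highest difference among the bright members. It read 10.89, 11.35 and 11.49 on labelled tumorigenic arrays, and 10.97, 11.17 and 11.04 on labelled nontumorigenic arrays. As in Rps14, mice 2 and 3 were above and mouse 1 was below all labelled nontumorigenic arrays, at a difference of 0.18 (SE 0.21, adjusted p = 0.830). Rpl37a, which binds zinc, differed by 0.11 (adjusted p = 0.895).

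Rpl11, the Mdm2-binding protein, read 11.43, 11.81 and 12.03 on labelled tumorigenic arrays, and 11.67, 11.83 and 11.63 on labelled nontumorigenic arrays. The extremes of the 6 values were again on mice 1 and 3 of the labelled tumorigenic arrays, and the difference was 0.04 (95% interval -0.45 to 0.53). Rpl27 had the same extremes, with 11.33, 11.91 and 12.03 against 11.86, 12.01 and 11.82, and a difference of -0.14 (SE 0.23, adjusted p = 0.888).

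Rpl38, which mouse mutants have tied to the translation of Hox messenger RNAs, read 12.74, 12.87 and 12.90 on labelled tumorigenic arrays, and 12.89, 12.90 and 12.80 on labelled nontumorigenic arrays. Its difference was -0.03, with an interval of -0.38 to 0.33. Rpl13a, which also serves in an interferon-induced complex that silences translation, differed by -0.02 (-0.38 to 0.34), and Rpl22, which is needed for the development of T cells in mice, by 0.06 (-0.35 to 0.47). The probe sets that represent these 3 genes varied by at most 0.35 over the 6 arrays, while other probe sets of Rpl13a and Rpl22 varied more, up to 1.18 for Rpl22.

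The genes with the lowest differences in the large subunit were measured by dimmer probe sets. Rpl12, a protein of the stalk base, read 5.93, 6.26 and 6.79 on labelled tumorigenic arrays, and 6.12, 6.89 and 7.27 on labelled nontumorigenic arrays. It was lower in the labelled tumorigenic sample of all 3 mice, the groups overlapped, and the difference was -0.43 (SE 0.37, adjusted p = 0.773). That SE includes the spread between mice. With the mouse as a block, the unadjusted limma p of Rpl12 was 0.08, against 0.281 without it, and the adjusted p was 0.566. Rpl14, whose window carries a tract, read 6.60, 6.85 and 7.81 against 8.63, 6.35 and 7.47. Its difference of -0.40 (SE 0.62, adjusted p = 0.883) came with -2.04 in mouse 1 and with 0.50 and 0.34 in mice 2 and 3.

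Rpl39, a very small protein that lines the exit tunnel of the nascent chain, was the member without overlap between the groups. It read 5.04, 5.29 and 5.29 on labelled tumorigenic arrays, and 5.30, 5.31 and 5.38 on labelled nontumorigenic arrays. The gap between the groups was narrow and all values were dim, with a difference of -0.12 (SE 0.15, adjusted p = 0.848). Rpl37, which also binds zinc, was dim as well, with a mean of 4.83 and a difference of 0.02 (95% interval -0.35 to 0.39). The remaining large subunit genes, Rpl4, Rpl6, Rpl7, Rpl7a, Rpl10a, Rpl19, Rpl27a and Rpl35, differed by -0.06 (Rpl27a) to 0.07 (Rpl19).

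Of the 3 paralogs that the naming rule takes in, 2 stood at the ends of the range of differences. Rpl39l, a paralog of Rpl39 known for its role in male germ cells, read 5.04, 8.24 and 4.17 on labelled tumorigenic arrays, and 3.87, 6.33 and 4.76 on labelled nontumorigenic arrays. Its range over the 6 arrays, 4.36 log2 units, was the widest of all members, and in each population mouse 2 was the highest. The difference was 0.83 (SE 1.16, 95% interval -2.00 to 3.66, adjusted p = 0.867), and with 1 array left out it lay between -0.39 (labelled tumorigenic array of mouse 2) and 1.65 (that of mouse 3). With the mouse as a block, the unadjusted limma p of Rpl39l was 0.19, against 0.503 without it, and the adjusted p was 0.683. Rpl3l, a paralog of Rpl3 known from striated muscle, read 3.59, 4.12 and 3.63 against 3.99, 3.78 and 3.95. At these levels, near the dim limit of 2.98, its difference of -0.12 (SE 0.20) says little.

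Rps27l, a paralog of Rps27 that p53 induces, had the lowest difference of all members. It read 9.50, 10.54 and 10.40 on labelled tumorigenic arrays, and 10.80, 10.54 and 10.68 on labelled nontumorigenic arrays. The labelled tumorigenic array of mouse 1 was the low one and mouse 2 had the same value in both populations, and the difference was -0.53 (SE 0.30, adjusted p = 0.680). Its 3 probe sets differed by -0.53 to -0.61, and leaving out the low array gave a difference of -0.20 (adjusted p = 0.898).

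**Figure D3:**
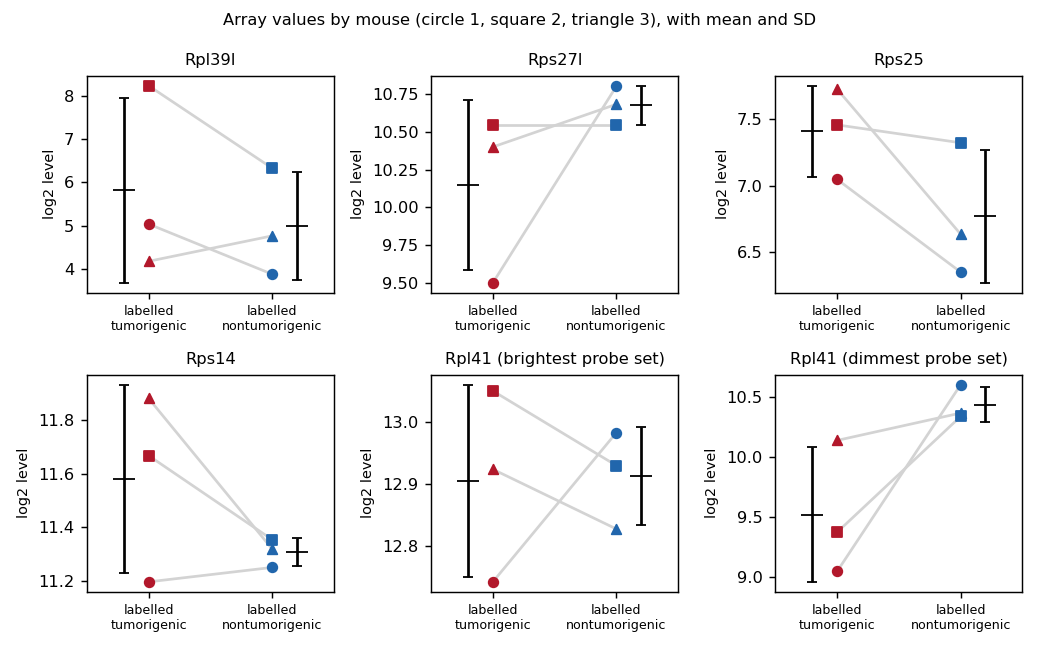
Log2 levels of Rpl39l, Rps27l, Rps25, Rps14 and 2 probe sets of Rpl41 on the labelled tumorigenic arrays (left) and labelled nontumorigenic arrays (right), joined by mouse (circle 1, square 2, triangle 3), with mean and SD (n = 3 each) as bars and an axis range of its own in each panel. The groups do not overlap in the dimmest probe set of Rpl41 and overlap in the others.

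A further paralog list, chosen by name and partly outside the naming rule, had 7 of 10 genes measured. Its 4 measured genes that are not members gave a difference of -0.66 (adjusted p = 0.708) for Rsl24d1, a factor of large subunit assembly, and of -0.19 for Rpl7l1, -0.10 for Rpl22l1 and 0.15 for Rps4l. Fau, whose product is cut into a ubiquitin-like part and a small subunit protein, differed by 0.03 (95% interval -0.32 to 0.37). None of these passed the adjusted threshold.

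Different probe sets of a ribosomal protein gene did not always give the same sign. The 45 genes had 99 probe sets, of which 95 passed the dim limit, and 13 of the 23 genes with several had probe sets of opposite sign. In these 13 genes the gap between the lowest and the highest difference ran from 0.0205 (Rps15) to 0.922 (Rpl41). The share of genes with opposite signs was not computed over all genes, so the count is not a trait of the members. Fitted over all probe sets, 0 of 33778 passed the adjusted threshold (0%), and 3 of the 95 had an unadjusted p under 0.05, against 7.69% of all probe sets. All 3 were lower in the labelled tumorigenic arrays, against 4.32% of all probe sets higher and 3.37% lower at that p, and none was the probe set that represented its gene.

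Rpl41, the gene of the shortest ribosomal protein, showed the widest disagreement. Its brightest probe set read 12.74, 13.05 and 12.92 on labelled tumorigenic arrays, and 12.98, 12.93 and 12.83 on labelled nontumorigenic arrays, a difference of -0.01. Its dimmest probe set read 9.05, 9.37 and 10.14 against 10.61, 10.34 and 10.37, a difference of -0.92 without overlap (adjusted p = 0.613). A second, slightly brighter one differed by -0.85, also without overlap, and the second brightest by 0.00207. The 4 probe sets of this gene thus fell into a brighter pair near 0 and a dimmer pair well below it. The pairs also differed in type, since only the dimmest was not named x_at. That ending marks probe sets whose probes may match other transcripts, and 40 of the 99 member probe sets carry it. The part of level and of probe set type in the split was not tested. The other gene with such a probe set was Rps9, a protein near the messenger RNA entry site, whose brightest probe set differed by -0.09 and whose dimmest by -0.79 (adjusted p = 0.647). Rps3 differed by 0.06 on its brightest and by -0.64 on a dimmer probe set (adjusted p = 0.707), and the 4 probe sets of Rpl13a ranged from -0.35 to 0.10.

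Grouped by mean level, the 37 probe sets at or above 12 had differences of -0.0902 to 0.107, and 15 of them were higher in the labelled tumorigenic arrays. The 29 probe sets between 10 and 12 had a median difference of 0.00202, with 15 higher. The 12 probe sets between 6 and 10 had a median of -0.328, with 3 higher, and the 17 below 6 had a median of -0.0939, with 6 higher. The bands also differed in how much a probe set varied, since the median range over the 6 arrays was 0.307 in the top band and 1.36 between 6 and 10. Probe sets of 1 gene share their transcript, so these counts are not independent observations.

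**Figure D4:**
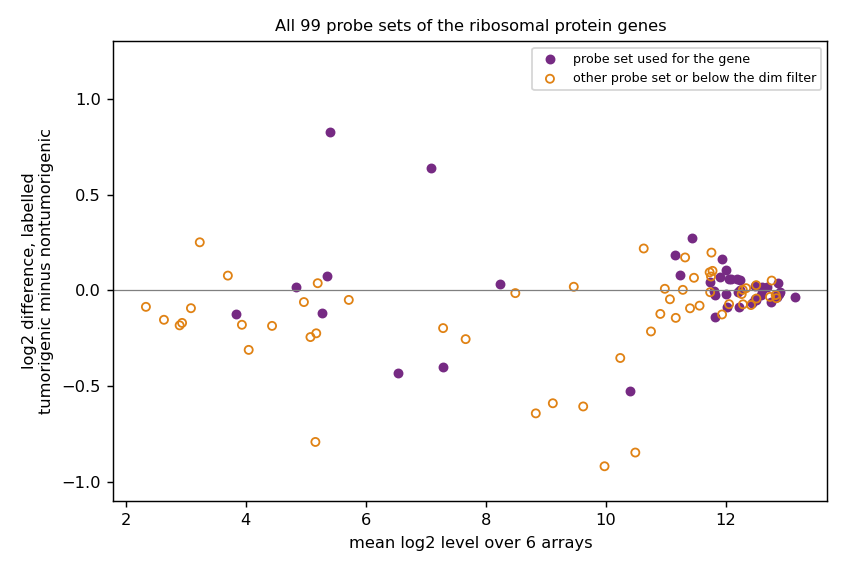
Log2 difference (labelled tumorigenic minus labelled nontumorigenic) of the 99 probe sets of ribosomal protein genes against their mean log2 level over 6 arrays, filled where the probe set represents its gene. Above a mean of 12 the points lie between -0.0902 and 0.107, and the lowest points, near -0.9, are the 2 dimmer probe sets of Rpl41.

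Ribosomal protein probe sets that carry several gene symbols were left out by the rule. Of 110 such probe sets, 106 passed the dim limit. Their median difference was -0.0124, and within mice 1 to 3 it was -0.167, -0.00715 and 0.158. The labelled tumorigenic array of mouse 1 was the lowest in 83 of the 106. These values repeat the order found in the members, on probe sets that in part measure the same transcripts.

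Genes that work with the ribosome were set beside the members as lists. Of the 34 measured translation factors (of 39 listed), 9 were higher in the labelled tumorigenic arrays and none passed the adjusted threshold. Their median was -0.0895, and -0.230, -0.134 and 0.0784 within mice 1 to 3. Eif2s3x, a subunit of the initiation factor that brings the first tRNA, read 9.33, 8.85 and 9.69 against 9.72, 9.95 and 10.03, a difference of -0.61 without overlap (adjusted p = 0.586). Eef1e1, a scaffold protein of the tRNA synthetase complex, differed by -0.75 (adjusted p = 0.675) and Eif3m by -0.51 (adjusted p = 0.664).

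Other messenger RNAs known for a TOP tract, 20 of 21 measured, had a median of -0.179, with 6 higher and none past the threshold. Within mice 1 to 3 their medians were -0.268, -0.245 and 0.0898, so mouse 2 stood closer to mouse 1 than it did for the ribosomal proteins. Pabpc1, the poly(A)-binding protein, which is also on the factor list, differed by -0.39 without overlap (adjusted p = 0.632), and Snhg1, a host transcript of small nucleolar RNAs, by -0.47 (adjusted p = 0.652).

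Ribosome assembly factors, 64 of 65 measured, had a median of -0.137, with 19 higher and none past the threshold. Within mice 1 to 3 the medians were -0.422, -0.184 and 0.105. Gar1, a protein of the particles that place pseudouridine in ribosomal RNA, read 8.77, 8.78 and 9.75 against 10.08, 9.71 and 9.78. Mice 1 and 2 were low and mouse 3 lay among the labelled nontumorigenic arrays, with a difference of -0.76 (SE 0.31, adjusted p = 0.586). Bysl, an assembly factor of the small subunit, differed by -0.38 without overlap (adjusted p = 0.608). The 12 measured genes of RNA polymerase I (of 15), which transcribes the ribosomal RNA genes, had a median of -0.209 and 4 higher, with -0.534, -0.356 and 0.148 within mice 1 to 3. Polr1a, its largest subunit, differed by -0.43 (adjusted p = 0.664).

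Regulators of ribosomal protein synthesis around mTOR and Myc, 20 of 21 measured, had a median of -0.0589, with 7 higher. Mtor itself read 7.58, 7.64 and 7.69 on labelled tumorigenic arrays, and 7.49, 7.14 and 6.92 on labelled nontumorigenic arrays, a difference of 0.45 without overlap (adjusted p = 0.597). Eef2k, the kinase that inhibits elongation factor eEF2, differed by -0.39 (adjusted p = 0.634). Pdcd4 differed by -0.33 without overlap (adjusted p = 0.655). In this list 1 gene was higher and 2 were lower without overlap, against 6.9% and 5.59% of all genes. Factors that meet the nascent chain, 14 of 17 measured, had a median of -0.113, with 5 higher. Among these factors 1 was higher and 4 were lower without overlap. The higher one was Sec61b, a subunit of the translocon, with a difference of 0.35 (adjusted p = 0.608). Among the lower ones, Srp9 differed by -0.37, Ltn1 by -0.31 and Srp19 by -0.26. None of either list passed the adjusted threshold.

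Mitochondrial ribosomal proteins, a list added after values had been seen, belong to the separate ribosome of the organelle. The 73 measured genes had a median of 0.0204, with 42 higher and none past the threshold. Within mice 1 to 3 their medians were -0.238, 0.174 and 0.277. Mrps34 read 5.999, 6.39 and 5.91 against 5.12, 5.45 and 5.30, higher in all 3 mice and without overlap, at a difference of 0.81 (SE 0.20, adjusted p = 0.424). The median was below 0 in mouse 1 and above 0 in mouse 3 for the members and the other 7 lists plotted. The same held for the probe sets with several symbols. It did not hold for the paralog list, whose medians were -0.382, 0 and -0.282 within mice 1 to 3. Fau, a single gene, was close to 0 in mouse 1, at -0.00422, and stood at 0.130 in mouse 3. Its lowest and highest values were both on labelled nontumorigenic arrays. The lists share arrays, and their differences between mice were not tested.

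**Figure D5:**
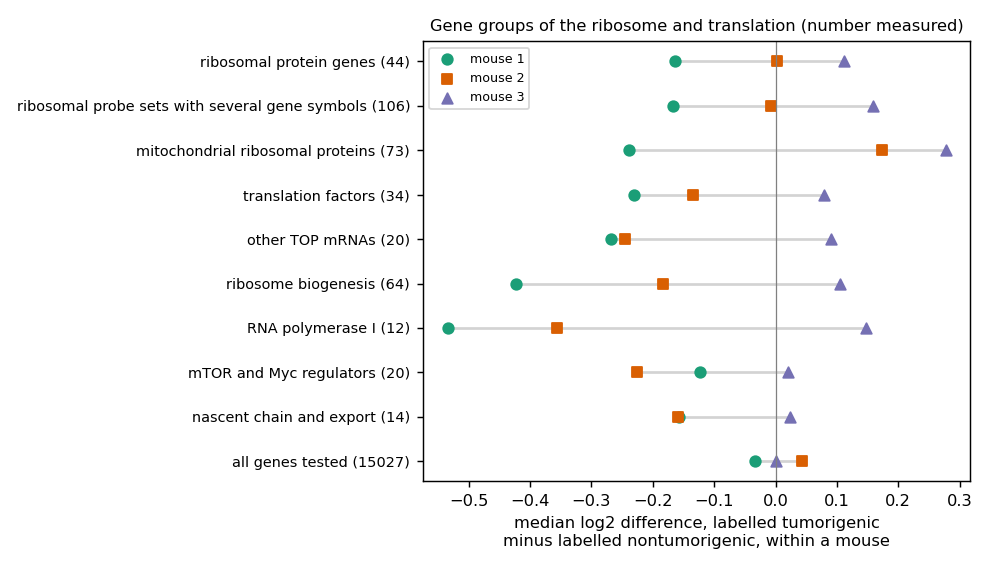
Median log2 difference (labelled tumorigenic minus labelled nontumorigenic) within mouse 1 (circle), mouse 2 (square) and mouse 3 (triangle) for the ribosomal protein genes, related gene lists and all genes tested, with the number measured in brackets. The ribosomal protein genes stand at -0.164, 0.00301 and 0.111, and all genes tested at -0.0334, 0.0424 and 0.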

How the data were processed

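Biotin-labelled cRNA from 6 sorted samples was hybridised to arrays of 45101 probe sets. The deposited values are log2 levels, made by the authors with robust multi-array averaging (RMA), as the submitters' processing notes record; its version is not given in the sources used here. RMA sets arrays to a common distribution, so a shift shared by most transcripts would be removed. Probe sets were named from the platform annotation, 34945 with 1 symbol, 932 with several and 9160 with none. After 64 controls and the dimmest 25% (mean under 2.98) were left out, 33778 probe sets and 15027 genes remained, with 1 probe set per gene (highest mean). Levels of different probe sets are not comparable.

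Populations were compared by limma 3.58.1 (lmFit, eBayes; R 4.3.3) on all 6 arrays without covariates, with two-sided p adjusted by Benjamini-Hochberg at 0.05. The steps were tested on simulated data. Mouse numbers name the same animals, so they pair the arrays; deviations of same-mouse arrays correlated at 0.079, 0.136 and 0.086 across genes. Genes named were the members with the 6 highest and 6 lowest differences, the 6 smallest p, extreme means or ranges, probe sets of opposite sign or a known role, and up to 4 per other list. Members and lists were chosen with earlier results of these data known. Alternatives covered the mouse as a block, filters, scaling, prior, array weights, probe set choice and leaving out arrays or mice. Protein sequences were not analysed here.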

Additional observations from a re-analysis of the deposited data

How the results depend on the processing

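No ribosomal protein gene passed the adjusted threshold under any of 19 alternatives, in which the smallest adjusted p of a member was 0.461 to 0.958. Their median difference was -0.0296 to 0.00337 in the 10 alternatives with all arrays, -0.0677 to 0.0851 with 1 array or 1 mouse left out, and -0.0124 to 0.000551 in 3 alternatives chosen after seeing the data. With all named probe sets averaged per gene, 15 of 44 members were higher. The fit with the mouse as a block, which uses the pairing, gave 0 genes past the threshold, 1435 at an unadjusted p under 0.05 (1277 without the block) and a smallest adjusted p of 0.54 among members, for Rps25, and it changed no call. Over all genes, the number past the threshold was 1 without the dim filter and 1 with probe sets averaged per gene. It was 0 to 18 when 1 array or mouse was left out, with the 18 reached when the labelled tumorigenic array of mouse 3 was omitted; the cause was not tested. With 3 arrays a population, their number limits the precision, and values near the dim limit carry little information.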
